A study of Mus musculus with 6 samples.

Results

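The SR protein splicing factor genes comprised Srsf1, Srsf2, Srsf3, Srsf4, Srsf5, Srsf6, Srsf7, Srsf9, Srsf10 and Tra2b, which were taken by gene symbol. All 10 were found among the 23792 gene rows, each in a row of its own, and all 10 reached 1 FPKM (fragments mapped to a gene, scaled for the length of its exons and for the size of the library) in at least 1 group. RNA was sequenced from heart ventricles of 3 HIF-PPN mice, examined 3 days after withdrawal of doxycycline, and of 3 control mice that stayed on doxycycline. All were male C57BL/6-FVB mice 6 to 8 weeks of age, and all carried both a tetracycline transactivator (tTA) driven by the αMHC promoter, which is active in cardiomyocytes, and a tetracycline-responsive transgene for HIF-1α-PPN, an HA-tagged HIF1α with alanine at 3 positions that are normally hydroxylated, so that the protein is stable in normal oxygen. Doxycycline, which keeps the transgene off, was given from conception and withdrawn from HIF-PPN mice alone, so that the groups differed in the drug as well as in transgene expression, and the 2 cannot be told apart.

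SR protein genes were not shifted together in HIF-PPN hearts. Srsf2 was the most abundant of them in both groups and stood furthest above its control level (83.2 FPKM in HIF-PPN hearts against 65.8 FPKM in control hearts, 1.27-fold), followed by Srsf4, Tra2b and Srsf9. Srsf1 was lower (37.1 FPKM in HIF-PPN hearts against 41.1 FPKM in control hearts), as were Srsf7, Srsf6, Srsf3, Srsf10 and Srsf5. The summed level of the 10 genes was 324 FPKM in HIF-PPN hearts and 328 FPKM in control hearts. The deposited table gives 1 merged value per gene and group, so that no spread between mice, no test and no p-value could be obtained, and each difference given here compares those merged values only.

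SR proteins bind short purine-rich and related sequences in exons through RNA recognition motifs (RRMs) and, through a tail rich in arginine and serine (RS domain), recruit the U1 particle and U2AF to the neighbouring splice sites. They generally promote inclusion of the exon they bind, while hnRNP proteins such as hnRNP A1 often oppose them. Kinases of the SRPK family phosphorylate the RS domain for import into the nucleus and kinases of the CLK family release the proteins from nuclear speckles. Most SR protein genes limit their own output by splicing in a conserved "poison" exon with an early stop codon, which sends the transcript to nonsense-mediated decay. In mouse heart, SRSF1 is known for switching exons of Camk2d, Ldb3 and Tnnt2 after birth, and loss of SRSF2 from mouse hearts leads to dilated cardiomyopathy with lower Ryr2.

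FPKM values are scaled for transcript length, so levels can be set side by side between genes. Between groups they rest on the scaling for library size, and the sum of all FPKM was 455133 in HIF-PPN hearts and 474795 in control hearts. Of all gene rows, 12098 reached 1 FPKM in at least 1 group with a value above 0 in both, and their median log2 fold change of HIF-PPN over control was 0.012. The depth per library is not given by these values, so no counting interval could be attached to them. Cardiomyocyte markers dominated both groups, with Myl2 of the ventricular myosin light chain at 12096 FPKM in HIF-PPN hearts and 12804 FPKM in control hearts. Hif1a, at which reads of the transgene may or may not have been counted, was at 25.9 FPKM in HIF-PPN hearts and 35.3 FPKM in control hearts.

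Because the transgene encodes a transcription factor subunit, the start sites of the members were examined in the RefSeq promoter windows of GRCm38.p6 (250 bases before to 50 bases after a start site), which were found for all 10 genes in 12 windows. HIF1 binds the core letters ACGTG or GCGTG, which were searched on both strands (ACGTG can lie inside the E-box CACGTG, of which the members had 0). The sequences of 4 members are shown because Srsf2 and Srsf4 had the highest log2 fold changes of the family, Srsf6 held the most matches and Srsf1 is paired with Srsf2 in the comparisons of ratios. Each is written 5′ to 3′ on the strand of its gene, with matches to either core, or to its reverse complement, in capitals.
Srsf2, chr11:116853045-116853344, minus strand: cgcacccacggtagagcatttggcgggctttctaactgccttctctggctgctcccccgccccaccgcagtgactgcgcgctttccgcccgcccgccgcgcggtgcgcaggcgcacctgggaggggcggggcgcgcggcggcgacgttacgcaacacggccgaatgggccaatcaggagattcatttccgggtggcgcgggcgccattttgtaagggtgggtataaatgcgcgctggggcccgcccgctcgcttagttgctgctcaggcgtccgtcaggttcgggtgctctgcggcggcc
Srsf4, chr4:131873387-131873686, plus strand: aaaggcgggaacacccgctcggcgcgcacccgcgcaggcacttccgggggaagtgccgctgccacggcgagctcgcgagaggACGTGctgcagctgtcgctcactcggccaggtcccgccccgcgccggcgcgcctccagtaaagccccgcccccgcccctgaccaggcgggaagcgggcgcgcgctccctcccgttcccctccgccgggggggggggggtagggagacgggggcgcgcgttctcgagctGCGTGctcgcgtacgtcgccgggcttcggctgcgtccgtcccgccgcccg
Srsf1, chr11:88047123-88047422, plus strand: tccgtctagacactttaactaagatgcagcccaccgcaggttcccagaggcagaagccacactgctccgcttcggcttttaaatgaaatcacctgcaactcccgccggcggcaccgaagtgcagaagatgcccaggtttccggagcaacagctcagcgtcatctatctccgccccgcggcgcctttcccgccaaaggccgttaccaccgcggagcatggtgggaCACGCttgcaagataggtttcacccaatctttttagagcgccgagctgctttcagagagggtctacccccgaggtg
Srsf6, chr2:162931258-162931557, plus strand: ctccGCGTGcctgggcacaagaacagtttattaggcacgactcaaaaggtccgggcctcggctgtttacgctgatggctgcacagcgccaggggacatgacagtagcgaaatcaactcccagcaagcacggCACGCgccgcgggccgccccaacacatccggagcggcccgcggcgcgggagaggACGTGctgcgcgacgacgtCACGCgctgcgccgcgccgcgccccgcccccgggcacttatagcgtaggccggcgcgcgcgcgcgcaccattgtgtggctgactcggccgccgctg
The Srsf2 window held 0 matches. The Srsf4 window held 2, an ACGTG beginning 168 bases before the start site and a GCGTG beginning at the start base itself. The Srsf1 window held 1 GCGTG on the opposite strand, 26 bases before the start, and the Srsf6 window held 4. Srsf4 has 2 further windows, of which 1 starts 2 bases later and holds the same matches and the other holds 0, so the members were counted by gene. ACGTG was found in 3 of 10 members and GCGTG in 6 of 10, with 6 of 10 holding either. Of all 27025 genes with a window, 21.8% held ACGTG, 35.2% GCGTG and 46.7% either. Of the 9052 such genes that passed the filter, 29.6% held ACGTG, 56.5% GCGTG and 68.1% either. The windows of Srsf5, Srsf7 and Srsf9 held neither. Matches thus occurred in members that were higher (Srsf4, Tra2b) and in members that were lower (Srsf1, Srsf3, Srsf6, Srsf10) in HIF-PPN hearts, and a match to 5 letters shows no binding. Counted by window, with every Srsf4 window included, the 12 windows had a median of 38 CpG and 69.2% G and C. Windows of genes that passed the filter had a median of 20 CpG and 61.0% G and C.

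Levels of the members spanned 6.79-fold in HIF-PPN hearts and 6.44-fold in control hearts. Srsf2 headed the order in both, followed by Srsf5. In HIF-PPN hearts the order then ran Srsf1, Srsf6, Srsf7, Srsf3, Srsf10, Tra2b, Srsf9 and Srsf4, while in control hearts Srsf6 stood just above Srsf1 and Srsf9 just above Tra2b. Neighbours such as Srsf1 and Srsf6 (37.1 and 35.6 FPKM in HIF-PPN hearts, 41.1 and 41.4 FPKM in control hearts) lay close together, and without values per mouse it cannot be said which neighbours differ. Srsf2 was higher than 93.6% of expressed genes in HIF-PPN hearts and 91.7% in control hearts, whereas Srsf4, the least abundant, was higher than 57.7% in HIF-PPN hearts and 52.4% in control hearts.

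**Figure D1:**
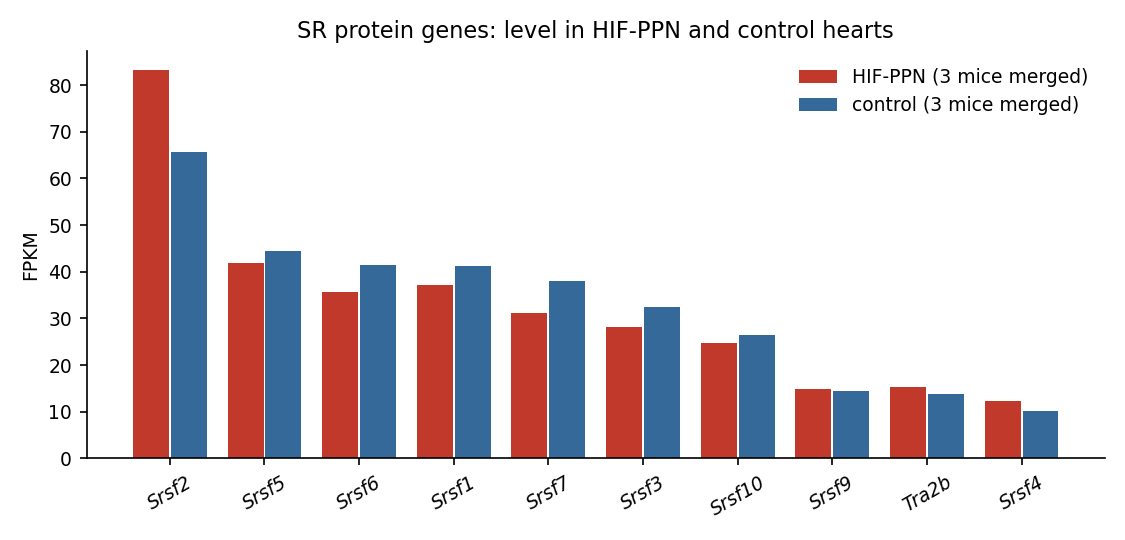
Level in FPKM (vertical axis) of each SR protein gene in HIF-PPN hearts (red, left bar) and control hearts (blue, right bar), ordered by control level. Each bar is 1 merged value of 3 mice with no error bar available. Srsf2 stands above the others in both groups, at 83.2 FPKM in HIF-PPN hearts and 65.8 FPKM in control hearts.

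The SR-like members Srsf10 and Tra2b are given separately below. Among the other members with a single RRM, Srsf2, also known as SC35 and bound to exonic enhancers in many transcripts, was at 83.2 FPKM in HIF-PPN hearts and 65.8 FPKM in control hearts (log2 fold change 0.34). Its row covers chr11:116849897-116853094 of mm10. It was the only member at least 25% higher, 1 of 10, against 14.4% of all 12098 genes. With each group scaled to its upper quartile Srsf2 fell short of that threshold, at 1.249-fold. Srsf3 and Srsf7, the others of this type, lay below their control levels. Srsf3 (chr17:29032660-29043372), which also takes part in mRNA export and polyadenylation, was at 28.1 FPKM in HIF-PPN hearts and 32.5 FPKM in control hearts (log2 fold change −0.21). Srsf7 (chr17:80200080-80207305), the member with a zinc knuckle beside its RRM, was at 31.1 FPKM in HIF-PPN hearts and 37.9 FPKM in control hearts (−0.29), the lowest log2 fold change of the family. In bulk ventricles, fewer cells of a type and less RNA per cell cannot be told apart for any of these values.

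Of the 5 members with an RRM and an additional pseudo-RRM, 3 were lower and 2 higher in HIF-PPN hearts. Srsf1, a founding member that acts in constitutive and alternative splicing as well as in translation and decay, covers chr11:88047373-88053757 of mm10. It was at 37.1 FPKM in HIF-PPN hearts and 41.1 FPKM in control hearts, a difference of −9.91% (log2 fold change −0.15). Its close relative Srsf9 (chr5:115327177-115333080) was at 14.9 FPKM in HIF-PPN hearts and 14.5 FPKM in control hearts (0.04), the smallest difference of the family. Srsf4, Srsf5 and Srsf6, which are related in sequence, differed in sign. Srsf4 (chr4:131873639-131920029), with the longest RS domain of them, was at 12.3 FPKM in HIF-PPN hearts and 10.2 FPKM in control hearts (0.26). Srsf5 (chr12:80945504-80950507), known for insulin-dependent splicing of protein kinase C beta, was at 42.0 FPKM in HIF-PPN hearts and 44.5 FPKM in control hearts (−0.09). Srsf6 (chr2:162931508-162937120), known for splicing of the tau transcript, was at 35.6 FPKM in HIF-PPN hearts and 41.4 FPKM in control hearts (−0.22). Srsf4 was thus the only one of these related genes that was higher in HIF-PPN hearts, and also the least abundant of them.

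The SR-like members lay on opposite sides of 0 as well. Srsf10 (chr4:135856071-135869899), which acts as a repressor of splicing when dephosphorylated by heat shock and is known in mouse heart for splicing of the triadin transcript, was at 24.7 FPKM in HIF-PPN hearts and 26.4 FPKM in control hearts (log2 fold change −0.10). Tra2b (chr16:22245741-22265929), which binds GAA-rich enhancers, was at 15.3 FPKM in HIF-PPN hearts and 13.7 FPKM in control hearts (0.16). As a group, the SR-like members summed to 40.0 FPKM in HIF-PPN hearts and 40.1 FPKM in control hearts.

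**Figure D2:**
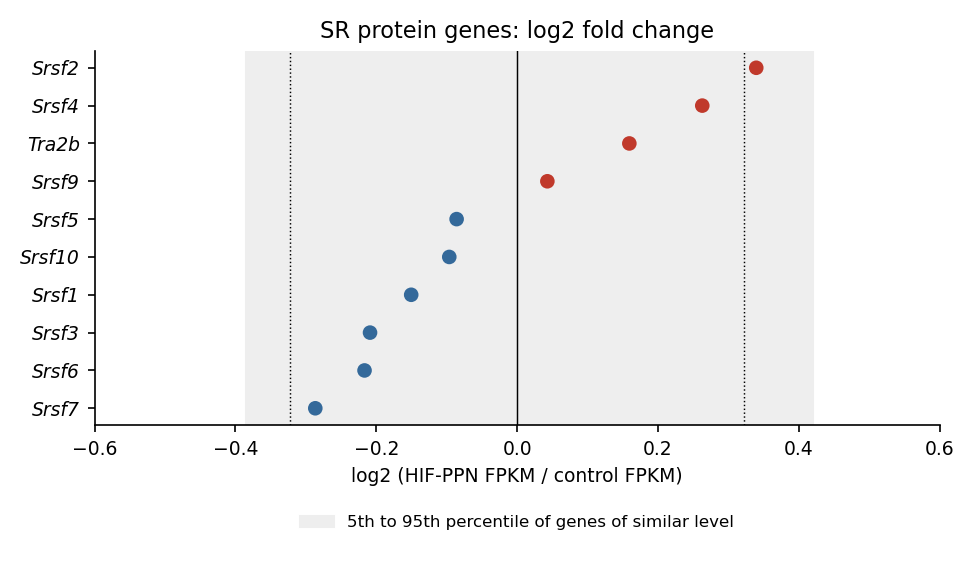
Log2 fold change of HIF-PPN over control (horizontal axis) for each SR protein gene, red where higher and blue where lower in HIF-PPN hearts. Dotted lines mark values 25% higher and 20% lower, and the grey band the 5th to 95th percentile (−0.38 to 0.42) of the 4567 genes within the members' range of mean FPKM. All 10 points lie inside the band and only Srsf2 lies beyond a dotted line.

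Of the 10 members, 4 were higher in HIF-PPN hearts, against 52.1% of all genes that passed the filter. Their median log2 fold change was −0.09, beside 0.012 over all those genes. None was at least 20% lower (11.6% of all genes) and none differed at least 2-fold in either direction (3.20% of all genes). A log2 fold change at least as far from 0 as that of Srsf2 was found in 24.0% of genes, and as that of Srsf1 in 56.4%. Among the 4567 genes with a mean between 11.2 and 74.5 FPKM, as the members had, the 5th and 95th percentiles of the log2 fold change were −0.38 and 0.42, and all 10 members lay between them. The signs of all 10 log2 fold changes were the same under each scaling tried, each of which moves all genes by the same amount. A pseudocount added to both groups cannot change a sign.

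**Figure D3:**
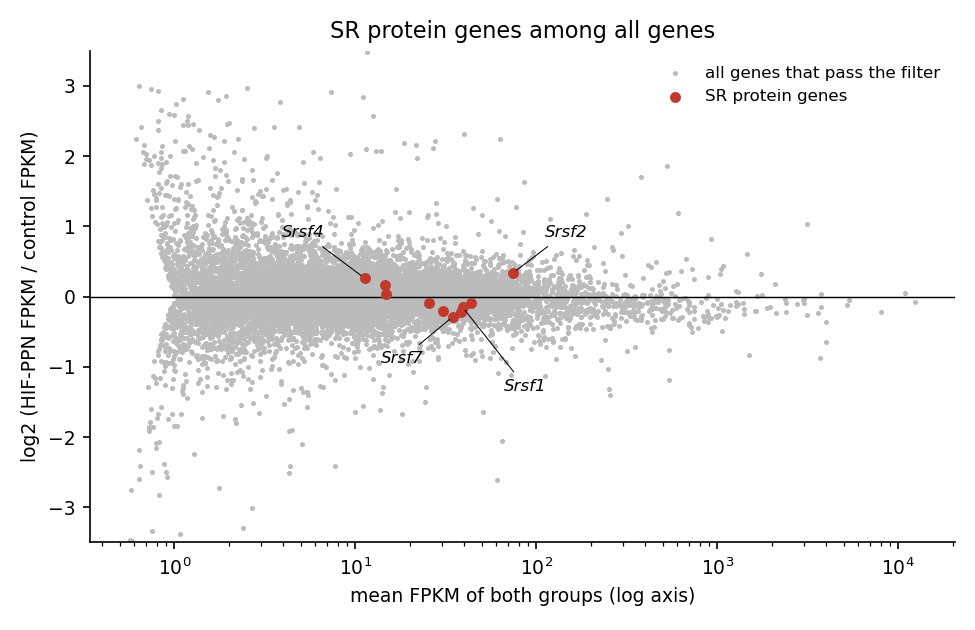
Log2 fold change of HIF-PPN over control (vertical axis) against the mean FPKM of both groups (horizontal log axis) for the 12098 genes that passed the filter (grey) and the 10 SR protein genes (red). Of the grey genes, 6 lie beyond the vertical range of 3.5 in either direction and are not shown. The members sit within the dense part of the grey cloud, between −0.29 and 0.34.

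The members that were higher stood at both ends of the order of levels. The 6 lower members were those between 26.4 and 44.5 FPKM in control hearts, while the 3 least abundant members and the most abundant, Srsf2, were higher. The differences of the higher members summed to 21.5 FPKM, of which Srsf2 made up 81.1%, and those of the lower members to −25.3 FPKM. Without Srsf2 the summed level was 241 FPKM in HIF-PPN hearts and 262 FPKM in control hearts, a difference of −8.11%. Srsf2 therefore held 25.7% of the members' FPKM in HIF-PPN hearts and 20.0% in control hearts. Among the other members the share differed most for Srsf7, at 9.59% in HIF-PPN hearts and 11.6% in control hearts.

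Ratios between genes of the same group do not depend on how the groups were scaled to each other. The pairs were chosen with the members' values known. The ratio of Srsf2 to Srsf1, which both take part in splicing of Camk2d, was 2.25 in HIF-PPN hearts and 1.599 in control hearts, a difference of 0.49 on the log2 scale. Among the pairs of members, the ratio of Srsf2 to Srsf7 differed most, at 2.68 in HIF-PPN hearts and 1.73 in control hearts. Srsf4 to Srsf6 was 0.344 in HIF-PPN hearts and 0.247 in control hearts, whereas Srsf7 to Srsf3 was close, at 1.11 in HIF-PPN hearts and 1.17 in control hearts. The ratio of Srsf1 to Hnrnpa1, a classical pair of opposing factors in the choice of 5′ splice sites, was 1.76 in HIF-PPN hearts and 2.84 in control hearts. Hnrnpa1 itself was at 21.0 FPKM in HIF-PPN hearts and 14.5 FPKM in control hearts and has many processed pseudogenes, with which reads may be shared, so this ratio is uncertain.

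The gene values add up all transcripts of a gene, among them forms that yield no protein. In the GENCODE annotation (vM1), 5 of the 10 members (Srsf1, Srsf2, Srsf3, Srsf5 and Tra2b) had a transcript of the nonsense-mediated decay class, against 16.4% of 11097 protein-coding genes that passed the filter, and 5 of 10 had a transcript with a retained intron, against 34.8%. The members had a median of 5 annotated transcripts, against 3 for those genes, and the shares were not matched for that number. Members with such an annotated decay transcript were found among the higher (Srsf2, Tra2b) and the lower (Srsf1, Srsf3, Srsf5). Productive and unproductive transcripts cannot be told apart in these values. Neighbouring genes were also looked up. Mfsd11, which overlaps Srsf2 in RefSeq but not in the deposited positions, was at 11.4 FPKM in HIF-PPN hearts and 11.0 FPKM in control hearts. Mettl23, within 1000 bases of Srsf2, was at 23.0 FPKM in HIF-PPN hearts and 27.8 FPKM in control hearts. Whether reads of either neighbour entered the Srsf2 value was not tested. Gatc, which overlaps Srsf9 in RefSeq, was at 16.0 FPKM in HIF-PPN hearts and 15.3 FPKM in control hearts. The Srsf4 row overlaps the lncRNA Gm12992 (1.43 FPKM in HIF-PPN hearts, 1.18 FPKM in control hearts), and reads of that overlap cannot be assigned since the strand of the libraries is not given in the sources used here.

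Other SR and RS-domain protein genes were close to their control levels. Of 28 such genes that passed the filter, 15 were higher and 13 lower in HIF-PPN hearts (median log2 fold change 0.0034), against 52.1% higher of all genes. The split turned with the scaling (12 higher with upper quartile scaling, 22 with scaling to the FPKM sum, against 49.0% and 61.6% of all genes). Of the 28, 0 were at least 25% higher or 20% lower, against 14.4% and 11.6% of all genes. The most abundant were Rsrp1 (96.1 FPKM in HIF-PPN hearts, 113 FPKM in control hearts), the coactivator and splicing factor gene Rbm39 (62.7 FPKM in HIF-PPN hearts, 64.4 FPKM in control hearts), Son, which encodes a scaffold of nuclear speckles (48.2 FPKM in HIF-PPN hearts, 56.6 FPKM in control hearts), and Luc7l2 of the U1 particle (41.7 FPKM in HIF-PPN hearts, 43.2 FPKM in control hearts). Of the closest relatives of the members, singled out after their values were seen, Tra2a was at 23.6 FPKM in HIF-PPN hearts and 24.4 FPKM in control hearts and Srsf11 at 17.5 FPKM in both. Srsf12 did not pass the filter, at 0.0658 FPKM in HIF-PPN hearts and 0.0780 FPKM in control hearts.

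Genes of these lists that are named for being at least 25% higher, and not for their level, were chosen after their values were seen. Of 10 genes for kinases that phosphorylate SR proteins, 7 were higher (median log2 fold change 0.13), or 9 with scaling to the FPKM sum, against 52.1% and 61.6% of all genes that passed the filter. Among them 2 of 10 were at least 25% higher, against 14.4% of all genes, namely Srpk3, the muscle-specific SRPK (24.3 FPKM in HIF-PPN hearts, 17.8 FPKM in control hearts, log2 fold change 0.44), and Clk2 (0.41). Clk1, the most abundant, was at 49.1 FPKM in HIF-PPN hearts and 61.1 FPKM in control hearts (−0.32), while Clk4 was at 22.0 FPKM in HIF-PPN hearts and 22.1 FPKM in control hearts and Dyrk1a at 22.3 FPKM in HIF-PPN hearts and 20.9 FPKM in control hearts. Phosphatases that remove these phosphates lay near their control levels, from −0.05 to 0.09, with the PP1 catalytic subunits Ppp1ca at 227 FPKM in HIF-PPN hearts and 223 FPKM in control hearts and Ppp1cb at 218 FPKM in HIF-PPN hearts and 227 FPKM in control hearts, the PP2A subunit Ppp2ca at 139.985 FPKM in HIF-PPN hearts and 142 FPKM in control hearts, and the PP1 regulator Ppp1r8 at 12.1 FPKM in HIF-PPN hearts and 11.4 FPKM in control hearts.

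Import and export factors included Tnpo3, the importin of SR proteins, at 29.7 FPKM in HIF-PPN hearts and 30.2 FPKM in control hearts, and the export factors Nxf1 (22.5 FPKM in HIF-PPN hearts, 23.8 FPKM in control hearts), Ddx39b (55.6 FPKM in HIF-PPN hearts, 53.2 FPKM in control hearts) and Alyref (18.6 FPKM in HIF-PPN hearts, 16.4 FPKM in control hearts). Of 9 genes of this list, 6 were higher, against 52.1% of all genes that passed the filter. With upper quartile scaling 5 were higher (49.0% of all genes), and with scaling to the FPKM sum 8 (61.6%). At least 25% higher were 2 of 9, against 14.4% of all genes, namely the export cofactor Nxt1 (8.04 FPKM in HIF-PPN hearts, 5.11 FPKM in control hearts) and Thoc5 (8.64 FPKM in HIF-PPN hearts, 6.56 FPKM in control hearts). In the exon junction complex and nonsense-mediated decay list, 10 of 15 genes were higher (median log2 fold change 0.06), or 12 with scaling to the FPKM sum, against 52.1% and 61.6% of all genes. Among its most abundant were Magoh (50.2 FPKM in HIF-PPN hearts, 49.3 FPKM in control hearts), Smg5 (21.1 FPKM in HIF-PPN hearts, 20.4 FPKM in control hearts) and the helicase gene Upf1 (15.5 FPKM in HIF-PPN hearts, 13.7 FPKM in control hearts). Of its 15 genes Smg8 alone was at least 25% higher (4.90 FPKM in HIF-PPN hearts, 3.90 FPKM in control hearts), against 14.4% of all genes. The factors that SR proteins recruit to splice sites were also near their control levels, with Snrnp70 of U1 at 41.1 FPKM in HIF-PPN hearts and 39.2 FPKM in control hearts, U2af2 at 21.2 FPKM in HIF-PPN hearts and 20.3 FPKM in control hearts, U2af1l4 at 24.9 FPKM in HIF-PPN hearts and 28.3 FPKM in control hearts and Sf1 of the branch point at 28.3 FPKM in HIF-PPN hearts and 25.8 FPKM in control hearts. Of 7 such genes, Snrpc of U1 alone was at least 25% higher (6.86 FPKM in HIF-PPN hearts, 4.41 FPKM in control hearts), against 14.4% of all genes.

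Of 9 hnRNP genes, 6 were higher (median log2 fold change 0.05), or 7 with scaling to the FPKM sum, against 52.1% and 61.6% of all genes. At least 25% higher were 2 of 9, against 14.4% of all genes. These were Hnrnpa1 (0.54) and Ptbp1, which encodes a repressor that binds polypyrimidine tracts, at 22.3 FPKM in HIF-PPN hearts and 15.4 FPKM in control hearts (0.54). The most abundant were Hnrnpa2b1 (204 FPKM in HIF-PPN hearts, 214 FPKM in control hearts), Hnrnph1 (69.3 FPKM in HIF-PPN hearts, 82.3 FPKM in control hearts), Hnrnpl (74.1 FPKM in HIF-PPN hearts, 64.7 FPKM in control hearts) and Hnrnpc (49.2 FPKM in HIF-PPN hearts, 47.4 FPKM in control hearts). Muscle splicing factors were lower in 7 of 7 cases (median log2 fold change −0.19), whereas 52.1% of all genes were higher. Rbfox1, which also acts on splicing of Camk2d, was at 9.69 FPKM in HIF-PPN hearts and 21.0 FPKM in control hearts (−1.11), the only gene of the pathway lists that differed at least 2-fold, while Rbm24 (83.3 FPKM in HIF-PPN hearts, 102 FPKM in control hearts), Mbnl2 (83.0 FPKM in HIF-PPN hearts, 86.7 FPKM in control hearts), Mbnl1 (68.6 FPKM in HIF-PPN hearts, 73.5 FPKM in control hearts) and the titin splicing factor gene Rbm20 (42.4 FPKM in HIF-PPN hearts, 50.2 FPKM in control hearts) differed less.

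**Figure D4:**
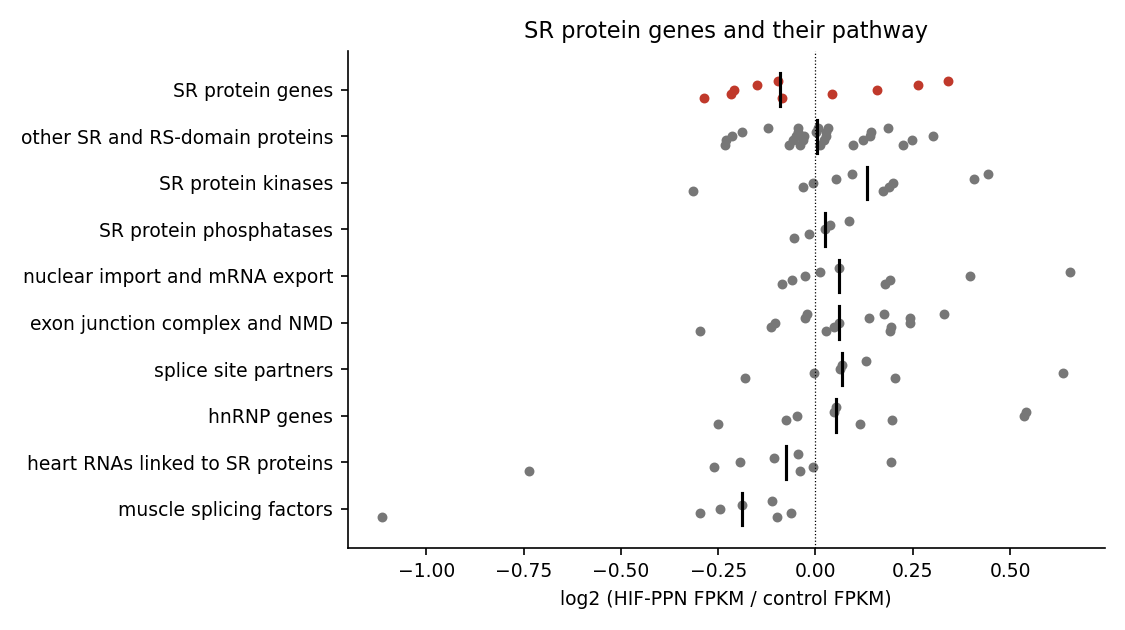
Log2 fold change of HIF-PPN over control (horizontal axis) for the 10 SR protein genes (red) and for the genes of 9 lists around them (grey), 1 point per gene that passed the filter, with the list median as a black line. The points of a row are spread vertically for visibility alone. SR protein genes range from −0.29 to 0.34, and the lowest point, at −1.11, is Rbfox1.

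Transcripts listed for a link to SR proteins in heart were lower as whole genes in 7 of 8 cases (median log2 fold change −0.08), and in 4 of 8 with scaling to the FPKM sum. Of all genes that passed the filter, 52.1% were higher, or 61.6% with that scaling. The list includes Camk2g, whose dependence on SR proteins was not tested. Tnnt2 was at 2982 FPKM in HIF-PPN hearts and 3064 FPKM in control hearts, Casq2 of calcium storage at 521 FPKM in HIF-PPN hearts and 597 FPKM in control hearts, and Ldb3 of the Z-disc at 473 FPKM in HIF-PPN hearts and 487 FPKM in control hearts. Ryr2, the calcium release channel gene, was at 116 FPKM in HIF-PPN hearts and 193 FPKM in control hearts (log2 fold change −0.74), the only one of the 8 at least 20% lower (11.6% of all genes). Ryr2 is known to depend on Srsf2 in mouse heart, and a link between their values here was not tested. Camk2d, at 70.6 FPKM in HIF-PPN hearts and 84.6 FPKM in control hearts, and Camk2g, at 24.2 FPKM in HIF-PPN hearts and 26.1 FPKM in control hearts, are named because the study turns on them. Gene values do not measure which exons were included.

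Markers of several cell types also differed between the groups. All 6 adipocyte markers that passed the filter, and all 7 genes of proliferating cells that passed it, were higher in HIF-PPN hearts, against 52.1% of all genes. Summed over the whole lists, genes below the filter included, adipocyte markers were at 1265 FPKM in HIF-PPN hearts and 922 FPKM in control hearts, most of it Fabp4, which capillary endothelium also expresses, with the brown fat gene Ucp1 at 12.9 FPKM in HIF-PPN hearts and 1.72 FPKM in control hearts. Genes of proliferating cells were at a summed 26.2 FPKM in HIF-PPN hearts and 6.80 FPKM in control hearts. All 8 cardiomyocyte markers were lower (median log2 fold change −0.12, with 6 of 8 lower after scaling to the FPKM sum), as were all 7 of macrophages and neutrophils (−0.39), with Lyz2 at 130 FPKM in HIF-PPN hearts and 144 FPKM in control hearts. Of the skeletal muscle markers Myh4 was listed at 0 in both groups and Casq1 alone passed the filter, at 43.4 FPKM in HIF-PPN hearts and 9.99 FPKM in control hearts. Medians of the other lists were −0.34 for atrial cardiomyocytes, −0.20 for fibroblasts, −0.05 for endothelium, −0.25 for lymphocytes, 0.09 for smooth muscle and pericytes (whose summed level was 309 FPKM in HIF-PPN hearts and 412 FPKM in control hearts) and −0.22 for erythroid cells. The lymphocyte median rests on 3 genes close to the filter, which ranged from −1.79 to 0.85. Atrial markers summed to 1882 FPKM in HIF-PPN hearts and 2596 FPKM in control hearts, and whether the groups held unequal amounts of atrium was not tested. The part of these cells in the SR protein values was not tested.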

How the data were processed

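RNA from ventricles of 3 HIF-PPN and 3 control mice was enriched for poly A RNA and sequenced in paired ends. After trimming and mapping (Tophat, Bowtie), the authors computed FPKM per gene (Cufflinks, Cuffdiff) and deposited 1 merged FPKM per group, so that depth and spread between mice are unknown. A column of the authors' own fold changes was not used. The methods name an older NCBI build and, for a later analysis, mm10. Positions of 98.7% of 22137 matched symbols overlapped the gene of that name in RefSeq GRCm38.p6, and starts were converted to 1-based positions.

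The log2 fold change was the log2 ratio of the HIF-PPN FPKM to the control FPKM with no pseudocount. Genes needed 1 FPKM in at least 1 group and a value above 0 in both. No test was made. Genes at least 25% higher, 20% lower and 2-fold different were counted. Alternatives were pseudocounts of 0.1, 1 and 5 FPKM, median centring, upper quartile and FPKM sum scaling, other filters and a 1.5-fold threshold. The 20 other gene lists and the members were chosen with earlier results of these data known. Named genes were all members, the 4 most abundant of each pathway list, any at least 2-fold different and neighbours of members, with others marked, and 1 gene that this rule names is not reported here. Marker lists were represented by their sums, medians and abundant genes. The planned protein comparison was not made, since no protein table was used here. The measures were tested on simulated data. Software was python 3.11.15 with pandas 2.3.3, numpy 2.4.6 and matplotlib 3.10.9.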

Additional observations from a re-analysis of the deposited data

How the results depend on the processing

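The values of the 10 members kept their sign in all 60 combinations of member and alternative (pseudocount, centring and scaling). A pseudocount added to both groups cannot change a sign. Centring and scaling move all log2 fold changes by the same amount. The kept signs therefore do not measure how sure the differences are. The number of members at least 25% higher was 1 (Srsf2), against 14.4% of all genes that passed the filter. It was 0 with a pseudocount of 5 FPKM (4.79% of all genes) and 0 with upper quartile scaling (13.25%). At a 1.5-fold threshold the number was 0 (5.42%). With scaling to the FPKM sum it was 2 (18.8%), where Srsf2 was at 1.32-fold and Srsf4 at 1.252-fold. The log2 ratio of the summed FPKM was −0.017, and it was 0.044 with scaling to the FPKM sum and −0.036 with upper quartile scaling, so its sign depends on the scaling. The median log2 fold change of the members lay between −0.11 and −0.030 over all alternatives. The counts of members that were higher (4) and at least 2-fold different (0) were the same under each alternative. Of all genes that passed the filter, between 49.0% and 61.6% were higher, depending on the scaling. In the main setting 3.20% of them differed at least 2-fold. No paired analysis was possible because the deposited values merge the mice of a group, and for the same reason no mouse could be left out. The unknown depth and the missing replicate spread limit each value.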
